A study of Mus musculus with 16 samples.

Results

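The regions described here are H3K27me3 peaks that were listed in the second library of Dicer-deleted mesenchymal stem cells and shared no base with an H3K27me3 peak of either Dicer-intact library. They were chosen by the measured peak positions themselves, by intersecting the lists called against whole-cell extract on chromosomes 1 to 19 of mouse build mm9. Of the 17471 H3K27me3 peaks of KO replicate 2, 9858 (56.4%) met this rule, out of 289751 peaks in all 24 lists of the series. The other 7613 peaks of that library shared at least 1 bp with a WT peak and are called shared peaks below. The same rule run the other way, WT replicate 2 peaks with no base in either KO list, chose 7808 of 14523 peaks (53.8%), so neither large library held most of the other's peaks.

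Histone ChIP-seq was performed on mouse mesenchymal stem cell (MSC) lines of strain C57BL/6, immortalized and monoclonal, with genotype Dicer -/- (KO) or Dicer f/f (WT). Dicer is the RNase that releases mature microRNAs from their hairpin precursors, so the question was how histone marks differ in cells that lack it. Each genotype had 2 libraries for each of H3K27me3, H3K4me3 and H3K36me3, and 2 whole-cell extract samples. Because each line is monoclonal and the labels do not say that replicates were separate clones or cultures, a difference between genotypes cannot be told apart from a difference between clones, and the p-values measure the spread between these libraries, which may be technical. No expression data or cell type markers were analysed here, so the MSC label was not checked.

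H3K27me3 is laid down by Polycomb repressive complex 2 and marks repressed chromatin, often in broad domains over developmental genes and at lower levels over gene-poor sequence. H3K4me3 marks the promoters of active or poised genes and can share a promoter with H3K27me3 in a bivalent state. H3K36me3 follows elongating RNA polymerase through the bodies of transcribed genes, and it hinders Polycomb repressive complex 2 on the same histone tail.

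The H3K27me3 lists were very unequal. KO replicates 1 and 2 held 698 and 17471 peaks on chromosomes 1 to 19, covering 0.729 and 34.4 Mb, and WT replicates 1 and 2 held 2533 and 14523 peaks, covering 4.64 and 37.3 Mb. The H3K4me3 lists held 16267 and 23215 peaks in KO and 12314 and 17755 in WT, and the H3K36me3 lists held 33028 and 35213 peaks in KO and 37562 and 36982 in WT. Read numbers are not given in the files, so the depth of each library is unknown. A peak absent from a list was not called there, which does not show that the mark was absent. The KO replicate 1 list was too short to decide whether most peaks recurred.

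The peaks without WT overlap were narrow and low in score. Their width had a median of 1208 bp, with quartiles of 966 and 1742.8 bp, against a median of 1864 bp for shared peaks of the same library. By width, 28.8% were under 1 kb, 52.8% were 1 to 2 kb, 17.2% were 2 to 5 kb and 111 (1.13%) were 5 kb or wider. The score is the authors' peak caller score and is used here to rank peaks within a list. Only the alternatives at the end apply a minimum of 160 across lists, whose scores may not be comparable. The peaks without WT overlap had a median score of 137.4 (quartiles 102.9 and 212), against 221.7 for shared peaks. In the list as deposited, which starts at a score of 80, 2208 of the peaks (22.4%) scored under 100 and 1321 (13.4%) scored 300 or more.

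Seen from the whole KO replicate 2 list, the share without WT overlap was lower at each step up in score and width. It was 71.9% of peaks scoring 80 to under 100, 67.6% from 100 to under 160, 55.8% from 160 to under 300 and 31.2% from 300 upward. By width it was 75% of peaks under 1 kb, 62.1% from 1 to 2 kb, 38.1% from 2 to 5 kb and 13.1% of peaks of 5 kb or more. Width and WT overlap are bound together by the rule, since a wider peak has more bases that can be shared, so these values are a description. WT replicate 2 peaks without KO overlap had a like median width of 1201 bp but more broad peaks. Of these, 3.7% were 5 kb or wider, against 1.13% of the KO replicate 2 peaks without WT overlap.

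**Figure D1:**
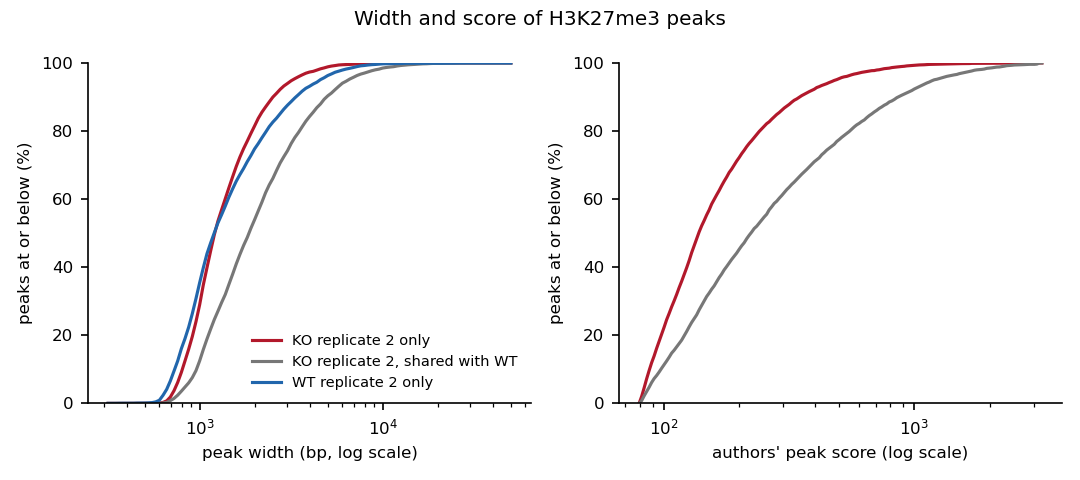
Cumulative share of peaks (%) by width in bp (left, log axis) and by the authors' score (right, log axis) for KO replicate 2 peaks without WT overlap (red), KO replicate 2 peaks shared with WT (grey) and, for width only, WT replicate 2 peaks without KO overlap (blue). The red curves lie left of the grey ones, with medians of 1208 against 1864 bp and scores of 137.4 against 221.7.

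Distances to the nearest WT H3K27me3 peak ranged widely. The median gap was 27.8 kb (quartiles 5.74 and 118.6 kb). A gap of at most 1 kb was found at 754 peaks (7.65%), 1 to 10 kb at 2484 (25.2%), 10 to 100 kb at 3879 (39.3%) and over 100 kb at 2741 (27.8%). In all, 32.8% of the peaks lay within 10 kb of a WT peak, while an interval of their median width placed anywhere on the chromosomes' span would do so over 8.15% of it. The peaks thus lay nearer to regions marked in WT than the span as a whole did.

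The values on both sides of the threshold were close. The smallest gap to WT was 1 bp at chr4:41462460-41463230 (score 80.65), 2 bp at chr10:30140686-30141848 (score 154.52) and 4 bp at chr6:97223737-97225013 (score 90.88). Just outside the rule, chr11:96298360-96299252 shared 2 bp with a WT peak, and chr1:72729392-72730372 and chr3:89106477-89107786 shared 4 bp each. Such slight overlaps were uncommon. Shared peaks had a median of 96.5% of their bases covered by WT peaks, and 393 of the 7613 were covered over less than 25%.

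KO replicate 1 was not used by the rule. Its list held 111 of the 9858 peaks (1.13%, 95% Wilson interval 0.936 to 1.35%), against 402 of the 7613 shared peaks (5.28%) and 2.94% of all KO replicate 2 peaks. The interval covers counting error only, and neighbouring peaks are not independent. By score class, from the lowest upward, KO replicate 1 listed 0.317%, 0.584%, 1.09% and 4.09% of the peaks without WT overlap, against 0.116%, 0.555%, 1.77% and 12.2% of shared peaks. The peaks without WT overlap were thus listed less often than shared peaks only from a score of 160 upward. That gap was widest at scores of 300 or more, and below 160 their share was like that of shared peaks or higher. The 111 listed peaks had a median width of 1992 bp and a median score of 297.9, against 1205 bp and 136.9 for the 9747 not listed. Read from the other list, 114 of the 698 KO replicate 1 peaks (16.3%) met a peak without WT overlap, 489 (70.1%) met a shared peak and 96 (13.8%) met neither.

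**Figure D2:**
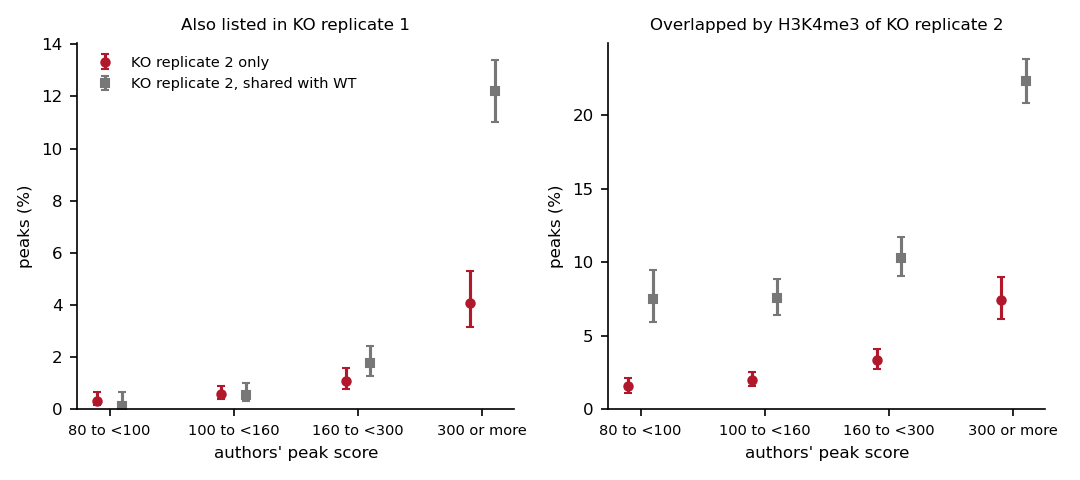
Share of KO replicate 2 H3K27me3 peaks (%) that were also listed in KO replicate 1 (left) or overlapped by an H3K4me3 peak of KO replicate 2 (right), in 4 classes of the authors' score. Red circles are peaks without WT overlap, grey squares are shared peaks and bars are 95% Wilson intervals. From 300 upward the red points stand at 4.09% and 7.42% and the grey ones at 12.2% and 22.3%.

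Each library also had a difference list, whose control the labels do not name. It is read below as a call against the other genotype, which is an assumption. The KO replicate 2 difference list, which stems from the same library as the rule, met 3227 of the peaks (32.7%), beside 18.7% of all KO replicate 2 peaks and 42 shared peaks (0.552%). So 6631 peaks that had no WT overlap were not called higher than WT. The called peaks had a median width of 1510 bp and a median score of 175.9, and the rest 1132 bp and 127.4. The called share was 2.65% for peaks within 1 kb of a WT peak, 15.8% at 1 to 10 kb, 35.7% at 10 to 100 kb and 52.2% beyond 100 kb. On the assumed reading, this list and the rule both set KO replicate 2 against WT. The contrast with shared peaks and the rise with distance from WT were therefore largely set by the rule and are descriptions. The KO replicate 1 difference list, which comes from a KO library the rule did not use but would share the WT side with it, met 43 peaks (0.436%) and 24 shared peaks (0.315%), beside 0.383% of all KO replicate 2 peaks, so its share among the peaks without WT overlap was near the background.

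Of the peaks without WT overlap, 36 (0.365%, beside 0.24% of all KO replicate 2 peaks) met the difference lists of both KO replicates. Of these 36, 18 lay on chromosome 18 between positions 88629326 and 89946913, a stretch of 1317.6 kb. Chromosomes 3 and 15 held 4 each, chromosomes 1 and 8 held 3 each, chromosome 6 held 2, and chromosomes 5 and 12 held 1 each. The chromosome 18 stretch, singled out after its values were seen, held 35 and 64 H3K27me3 peaks in KO replicates 1 and 2, against 1 and 5 in WT replicates 1 and 2. Listed H3K27me3 covered 39.8 and 137.8 kb of it in the KO libraries, against 0.588 and 7.58 kb in the WT libraries. Of the 64 KO replicate 2 peaks there, 61 had no WT overlap, and the stretch held 33 of the 113 difference peaks of KO replicate 1. H3K36me3 in the same stretch covered 120.2 kb in KO replicate 1 and 154.3 kb in KO replicate 2, against 36.5 kb in WT replicate 1 and 85.5 kb in WT replicate 2. H3K4me3 covered 6.08 and 8.98 kb there in KO, against 4.01 and 6.86 kb in WT. The stretch was drawn from the first to the last of these 18 peaks, which met both KO difference lists and had no WT overlap. Its larger H3K27me3 cover in KO was therefore largely set by that choice and is a description. H3K36me3 and H3K4me3, which the choice did not use, also covered more of it in both KO libraries than in the WT library of the same number. The part of this wider H3K36me3 and H3K4me3 in the H3K27me3 lists was not tested.

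The highest scores were found on a few broad peaks. At chr15:102592597-102603736, a peak of 11140 bp scored 3100, ended 166 bp from a WT replicate 2 peak and met difference peaks of both KO replicates, although the KO replicate 1 list held no base of it. At chr15:102751479-102757571, a peak of 6093 bp also scored 3100, and the KO replicate 1 list covered 2547 bp of it. Between them lay chr15:102615473-102631007, the second widest of all at 15535 bp, with a score of 812.70 and no base in KO replicate 1.

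The other top peaks were spread over chromosomes. At chr6:128138879-128148382, a peak of 9504 bp scored 2743.39 with no base in KO replicate 1 and 260.3 kb to the nearest WT peak. At chr3:121667817-121678036, a peak of 10220 bp scored 2693.45 with 1555 bp listed in KO replicate 1. At chr18:89084781-89092971, inside the chromosome 18 stretch, a peak of 8191 bp scored 2249.89 with 823 bp listed in KO replicate 1. Among the 5 highest-scoring peaks also listed in KO replicate 1 were chr2:148712888-148720664, with 7777 bp and a score of 1724.76, and chr6:129188241-129197637, with 9397 bp and a score of 1488.89. KO replicate 1 listed 1128 and 891 bp of them. The widest peak of all, 18719 bp at chr6:50523012-50541730, scored only 147.38 and was in neither KO difference list. The fifth widest, chr8:37374232-37384219 with 9988 bp, scored 1944.47, and the peaks at chr15:102592597-102603736 and chr3:121667817-121678036 were among the 5 highest by score and by width.

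H3K4me3 rarely overlapped the peaks. In KO replicates 1 and 2, H3K4me3 peaks overlapped 1.52% and 2.97% of them, and in WT replicates 1 and 2 it was 1.81% and 2.92%. For shared peaks the shares were 5.06% and 13.9% in KO and 4.43% and 13.9% in WT, and for WT replicate 2 peaks without KO overlap they were 5.51% and 10.9% in KO and 4.5% and 11.9% in the WT libraries. Across the whole KO replicate 2 H3K27me3 list, H3K4me3 overlapped 3.06% and 7.74% in KO, against 2.95% and 7.69% in WT. An interval of 1208 bp, their median width, would touch H3K4me3 over 2.08% and 3.27% of the span in KO and 1.59% and 2.65% in WT. The peaks without WT overlap met H3K4me3 a little less often than this interval would in KO, and a little more often in WT. Wider peaks among them can touch more often, so the small excess in WT was not separated from width. The shortfall against shared peaks was present in each score class: 1.54% against 7.51% at 80 to under 100 and 7.42% against 22.3% at 300 or more. The 293 peaks overlapped by H3K4me3 in KO replicate 2 were wider than the others, with medians of 1753 and 1199 bp. Median scores were 196.2 for the overlapped peaks and 136.3 for the others. The KO replicate 2 difference list met 54.3% of the overlapped peaks and 32.1% of the others. A wider peak has more bases that can meet H3K4me3, so these contrasts and the shortfall against the wider shared peaks are descriptions.

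H3K36me3 hardly touched the peaks. It overlapped 4 peaks in each KO library (0.0406%), and 12 (0.122%) and 31 (0.314%) in WT replicates 1 and 2. For an interval of the median width the span share was 4.75% and 5.8% in KO and 5.68% and 8.56% in WT. Shared peaks also rarely met it, with 4 overlaps (0.0525%) in each KO library and 4 (0.0525%) and 7 (0.0919%) in WT. Among all KO replicate 2 peaks the shares were 0.0458% in each KO library and 0.0916% and 0.218% in WT. No H3K36me3 peak of any library overlapped 9826 of the 9858 peaks, nor 99.8% of all KO replicate 2 peaks.

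The planned comparison asked whether the peaks lay nearer to H3K4me3 or H3K36me3 in KO than in WT. H3K4me3 lay within 10 kb of 14.6% and 21.8% of them in KO replicates 1 and 2 and of 12.7% and 19.5% in WT replicates 1 and 2. The KO mean of 18.2 ± 5.12% exceeded the WT mean of 16.1 ± 4.79% (SD, n = 2 each) by 2.1 points, which is less than the spread within either genotype (exact two-sided permutation p = 0.667, adjusted p = 0.667 over 2 tests, smallest possible 0.333). The difference turned to -0.117 points for direct overlap, to -1.52 without KO replicate 2 and to -1.29 without WT replicate 1. Among all KO replicate 2 peaks the share within 10 kb of H3K4me3 was 18.2% and 28.9% in KO, against 15.6% and 27% in WT. For H3K36me3 the shares were 2.93% and 3.54% in KO and 3.44% and 6.29% in WT, with means of 3.24 ± 0.43% and 4.86 ± 2.02% (SD, n = 2 each). The difference of -1.63 points did not exceed the spread in WT (exact two-sided permutation p = 0.667, adjusted p = 0.667). Among all KO replicate 2 peaks the H3K36me3 shares were 3.9% and 4.48% in KO and 4.38% and 7.13% in WT. Shared peaks showed like differences, 2.39 points for H3K4me3 and -1.48 points for H3K36me3. A 1208 bp interval lay within 10 kb of H3K4me3 over 12.6% and 17.8% of the span in KO and 9.82% and 14.5% in WT. For H3K36me3 the span shares were 11.9% and 13.8% in KO and 13.2% and 16.9% in WT. The span thus leaned the same way for both marks, and the differences at the peaks were not separated from those of the whole lists.

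The difference lists of the other marks were compared at these peaks after the data were seen. KO-higher H3K4me3 difference peaks met 17 and 32 of the peaks (0.172% and 0.325%) in replicates 1 and 2, and WT-higher ones met 110 and 76 (1.12% and 0.771%). The groups did not overlap, and with 2 libraries each the exact two-sided permutation p of 0.333 is the smallest possible (adjusted p = 0.667 over 4 tests). The background over all KO replicate 2 peaks was 0.71% and 1.17% KO-higher and 1.37% and 1.77% WT-higher. Shared peaks met KO-higher ones at 1.41% and 2.26% and WT-higher ones at 1.71% and 3.07%. The KO-higher minus WT-higher difference was -0.695 points for the peaks without WT overlap and -0.558 points for shared peaks, so in points the lean was alike. In proportion, the KO-higher share fell further below the background than the WT-higher share. The whole lists held 5614 and 6483 KO-higher and 1677 and 1271 WT-higher H3K4me3 difference peaks. Called in both replicates were 5 peaks (0.0507%) KO-higher and 44 (0.446%) WT-higher, against 33 and 47 shared peaks, and 0.218% and 0.521% of all KO replicate 2 peaks. H3K36me3 difference peaks met no peak in either KO list and 9 and 28 (0.0913% and 0.284%) in the WT lists, beside 0 and 0.00572% KO-higher and 0.0515% and 0.172% WT-higher among all (exact two-sided permutation p = 0.333, adjusted p = 0.667). WT-higher H3K36me3 in both replicates was found at 8 of the peaks (0.0812%) and at no shared peak, which is 0.0458% of all KO replicate 2 peaks.

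A few loci were picked for H3K27me3 in KO replicate 2 where WT listed H3K36me3. H3K36me3 was listed in both WT libraries and in neither KO library at 6 peaks and at no shared peak (0.0343% of all). These were chr3:29908304-29911629, chr3:121686347-121687095, chr3:121687592-121688267, chr6:38675370-38678729, chr15:102758919-102760033 and chr19:59539334-59541676. All 6 met the KO replicate 2 difference list, while none had a base in the KO replicate 1 H3K27me3 list. At 4 places such a peak, or one within 25 kb of it, also scored 300 or more and overlapped H3K4me3 of both WT libraries. These 4 were chosen after their values were seen, and a 50 kb window was taken around each. The choice itself required H3K27me3 of KO replicate 2 without WT overlap, and H3K4me3 and H3K36me3 of both WT libraries. It also required no KO H3K36me3 at the peak that carried it in WT. The windows therefore describe what was picked and are no support for a link between these marks.

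In the chromosome 15 window, centred on chr15:102751479-102757571, listed H3K27me3 covered 8172 and 35142 bp in KO replicates 1 and 2, against 0 and 4574 bp in WT replicates 1 and 2. H3K4me3 covered 6083 and 9837 bp in KO, against 7996 and 12010 bp in WT. On the peak itself H3K4me3 covered 591 and 1363 bp in KO, against 2131 and 3052 bp in WT. H3K36me3 covered no base in KO and 1036 and 3733 bp in WT. H3K27me3 was thus broader in each KO library than in the WT library of the same number, and H3K4me3 narrower.

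In the chromosome 3 window, centred on chr3:121667817-121678036, H3K27me3 covered 2165 and 27316 bp in KO, against 0 and 7055 bp in WT. H3K4me3 covered 1079 and 2575 bp in KO, against 2207 and 4608 bp in WT. H3K36me3 was not listed in KO and covered 17523 and 12102 bp in WT, beginning 0.087 and 0.074 kb beyond the edge of the KO replicate 2 peak.

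In the chromosome 19 window, centred on chr19:59528796-59535798 (7003 bp, score 2144.99), H3K27me3 covered 0 and 10468 bp in KO, and no base in WT. H3K4me3 covered 0 and 3964 bp in KO, against 4606 and 7233 bp in WT, and H3K36me3 covered none in KO and 1767 and 6373 bp in WT. H3K27me3 was therefore listed in this window in only 1 of the 4 libraries. In the remaining window, centred on chr3:29908304-29911629 (score 736.50), it was also listed in KO replicate 2 alone, over 3326 bp. H3K4me3 there covered 3402 and 1949 bp in KO, against 3255 and 4566 bp in WT. H3K36me3 covered 1875 bp in KO replicate 1 and no base in KO replicate 2, against 15474 and 2716 bp in WT.

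Distance to active marks bears on whether the peaks spread over gene deserts. The nearest H3K4me3 peak of KO replicate 2 lay at a median of 30.9 kb, against 17.9 kb for shared peaks and 25.2 kb for WT replicate 2 peaks without KO overlap. For H3K36me3 of KO replicate 2 the medians were 79.7, 62.1 and 83.1 kb, in the same order. The nearest peak of either mark in any library was at 24.7, 13.9 and 18.5 kb. Peaks without WT overlap thus lay farther from H3K4me3 than shared peaks, and about as far from H3K36me3 as the WT replicate 2 peaks without KO overlap.

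Against the chromosomes as a whole, the peaks kept near active marks but were seldom in or close to H3K36me3. Direct overlap with H3K4me3 of KO replicate 2 was near the span share, at 2.97% against 3.27%. H3K4me3 of KO replicate 2 stood within 100 kb of 85.1% of the peaks but of 56.8% of the span, and H3K36me3 within 100 kb of 57.4% against 37.5%. Closer in, the order turned for H3K36me3: 3.54% of the peaks but 13.8% of the span lay within 10 kb. For H3K4me3 the 10 kb shares were 21.8% and 17.8%. The span runs from the first to the last listed peak of each chromosome, 2405.6 Mb in all, and includes sequence to which reads cannot be mapped, so its desert share is an upper estimate.

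Few peaks lay in long stretches without either active mark. Stretches of at least 500 kb with no H3K4me3 or H3K36me3 peak in any of the 8 libraries numbered 836 and made up 961.8 Mb, or 40% of the span. They held 1249 of the peaks (12.7%), at 1.3 per Mb inside against 5.96 per Mb outside. Shared peaks were rarer there, at 7.66% (0.606 per Mb inside and 4.87 outside), and WT replicate 2 peaks without KO overlap at 9.39% (0.762 and 4.9). Stretches of at least 1000 kb made up 26% of the span and held 3.29% of the peaks, 2.36% of shared peaks and 3.82% of WT replicate 2 peaks without KO overlap. At the shortest length, 100 kb, the peaks came near an even spread, with 61.6% of them in 66.4% of the span against 47.2% of shared peaks.

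No active mark of any library lay within 100 kb of 996 peaks (10.1%), against 435 shared peaks (5.71%), 830 WT replicate 2 peaks without KO overlap (10.6%) and 8.19% of all KO replicate 2 peaks. From the lowest score class upward the share was 11.3%, 10.8%, 10.4% and 5.6%. These 996 peaks had a median width of 1095.5 bp, and 33.9% met the KO replicate 2 difference list against 32.6% of those with a mark within 100 kb. The 3 most remote were chr14:97361953-97362747 at 1204.1 kb (score 82.72), chr15:71552942-71554596 at 1084.7 kb (score 276.48) and chr15:18747595-18748312 at 856.9 kb (score 84.67). None of these 3 was in KO replicate 1.

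**Figure D3:**
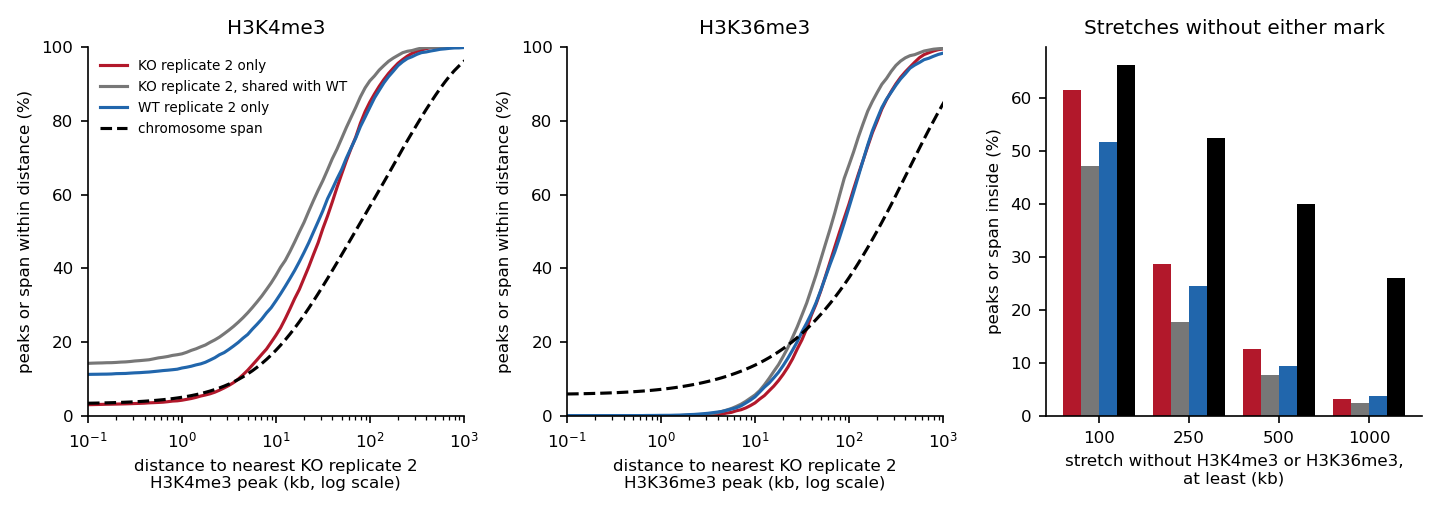
Cumulative share (%) by distance in kb (log axis) to the nearest KO replicate 2 H3K4me3 (left) or H3K36me3 peak (middle), and share lying in stretches without either mark of at least 100, 250, 500 or 1000 kb (right). Red stands for KO replicate 2 peaks without WT overlap, grey for shared peaks, blue for WT replicate 2 peaks without KO overlap and black for the chromosome span; in stretches of at least 500 kb the red bar stands at 12.7% and the black one at 40%.

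In windows of 1 Mb the picture was the same. The 282 windows of 2419 with no active mark (11.7%) held 15 of the peaks (0.152%). Windows with up to 20 kb of active marks were 20.4% of all and held 6.33% of the peaks, those with 20 to 100 kb were 28% and held 32%, and those with over 100 kb were 39.9% and held 61.5%. The mean number per window was 1.26, 4.66 and 6.28 in these 3 classes, so density was highest where active marks covered most. Shared peaks had 21% in the class of 20 to 100 kb and 75.1% in the class over 100 kb, and WT replicate 2 peaks without KO overlap had 24.1% and 70.4%.

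The peaks were clumped. They fell into 1310 of the 2419 windows (54.2%), and the tenth of windows with the most of them held 53.1%. The variance of the count per window was 12.5 times its mean, and 10.6 times within chromosomes, against 10.9 and 9.96 for shared peaks. The nearest other peak without WT overlap lay at a median of 2.37 kb, and 73.1% had one within 10 kb. Joined across gaps of up to 10 kb they formed 5610 clusters, of which 36.4% were single peaks and the largest held 18 peaks over 83.5 kb.

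The 3 densest windows differed in what WT showed there. At chr6:4000001-5000000 there were 63 of the peaks and 23 shared ones, and WT replicate 2 listed 40 peaks, of which 13 had no KO overlap. At chr8:25000001-26000000 there were 57 and 2, WT replicate 2 listed 4, and 39 of the 57 met the KO replicate 2 difference list. At chr15:11000001-12000000 there were 57 and 8, and WT replicate 2 listed 8. WT replicate 1 listed no peak in any of these windows, and KO replicate 1 listed 5, 1 and 2. The chromosome 6 window was dense in H3K27me3 in both genotypes, and the others mainly in KO replicate 2.

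Chromosomes were represented unevenly. Density ran from 0.356 peaks per Mb on chromosome 9 to 11 per Mb on chromosome 15, with 8.95 on chromosome 8 and 8.53 on chromosome 6. Chromosomes 2, 3, 6, 8 and 15 made up 29.5% of the span and held 5600 of the peaks (56.8%), 40.2% of shared peaks and 24.7% of WT replicate 2 peaks without KO overlap. They held 63.7% of the peaks that met the KO replicate 2 difference list. By contrast they held 30.2% of KO replicate 2 H3K4me3 peaks and 28.3% of its H3K36me3 peaks, close to their share of the span.

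The share of KO replicate 2 peaks without WT overlap was lowest on chromosome 9, with 43 of 204 (21.1%), where 960 WT replicate 2 peaks had no KO overlap. It was highest on chromosome 12, with 226 of 304 (74.3%), of which 65% met the KO replicate 2 difference list. Peaks without WT overlap per WT replicate 2 peak without KO overlap ran from 0.0448 on chromosome 9 to 4.27 on chromosome 3. Peaks of the KO replicate 2 list alone were thus scarce on chromosome 9 and common on chromosome 3 relative to those of the WT replicate 2 list alone. The level of these shares rests on WT replicate 2. Without that library the share was 63.7% on chromosome 9 and 94.1% on chromosome 12. Over all chromosomes 15962 of the 17471 peaks then had no WT overlap. Chromosome 9 thus stayed below chromosome 12 and below the list as a whole.

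H3K4me3 peak numbers moved with the chromosome in the same sense. H3K36me3 peak numbers did so in replicate 1 only, while H3K36me3 difference peaks did so in both replicates. Over the 19 chromosomes, the share of KO replicate 2 peaks without WT overlap went with the KO to WT ratio of H3K4me3 peak numbers at a Pearson correlation of 0.735 for replicate 1 and 0.795 for replicate 2 (Spearman 0.767 and 0.756). With the same ratio for H3K36me3 it was 0.663 and 0.204 (Spearman 0.54 and -0.0596). With the share of difference peaks that were KO-higher it was 0.603 and 0.724 for H3K4me3 (Spearman 0.433 and 0.651). For H3K36me3 that share gave 0.506 and 0.599 (Spearman 0.509 and 0.535). The chromosomes share their libraries, cell lines and depth, so these are descriptions. The H3K4me3 ratio ran only from 1.19 to 1.44 in replicate 1 and from 1.12 to 1.49 in replicate 2. The part of these chromosome-wide H3K4me3 and H3K36me3 differences in the H3K27me3 result was not tested. Copy number of the lines was not measured, so differences in it between the clones cannot be told apart from differences in the mark, on whole chromosomes or in the chromosome 18 stretch.

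**Figure D4:**
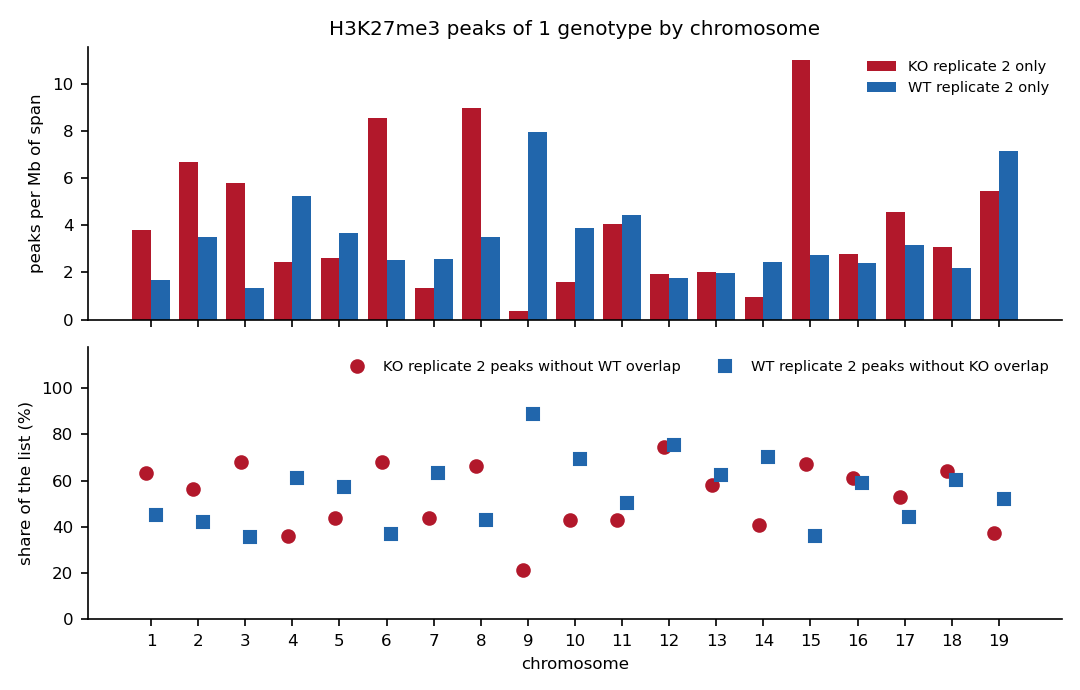
H3K27me3 peaks per Mb of span (top) and as a share of their list in % (bottom) on chromosomes 1 to 19, for KO replicate 2 peaks without WT overlap (red) and WT replicate 2 peaks without KO overlap (blue). Red bars are tallest on chromosome 15 (11 per Mb) and the blue bar on chromosome 9 (7.95 per Mb).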

How the data were processed

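ChIP DNA was sequenced, aligned with Bowtie 0.12.7 to mm9 and searched for peaks with MACS, per the submitters' processing notes; these notes name no MACS version or settings. Each of the 12 ChIP libraries has 2 deposited peak lists, one against whole-cell extract and one difference list, called per library without pooling. The only value per peak is the authors' deposited score. Its formula is not stated by the labels; all scores are 80 or more.

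From there, positions were counted from 1, chromosomes 1 to 19 were kept, and peaks were overlapped by at least 1 bp (Python 3.11.15, pandas 2.3.3, numpy 2.4.6, scipy 1.17.1). Distances and overlaps were checked on 4000 simulated intervals with 0 mismatches. Libraries, not peaks, were compared by exact permutation tests, with Benjamini-Hochberg adjustment. No test was made over peaks. Named regions are the 5 highest in score, the 5 widest, the 5 highest also in KO replicate 1, the 3 most remote from active marks, the 3 nearest to WT, the 3 least overlapped and the 3 densest 1 Mb windows; others are named as chosen after their values were seen. The regions, rules and lists were chosen with earlier results of these data known. A gene annotation of mm9 was not used here, so no gene names or sequences are given. Alternatives were another score minimum, overlap rule or window, leaving out libraries, chromosomes or a replicate block.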

Additional observations from a re-analysis of the deposited data

How the results depend on the processing

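Limiting all H3K27me3 lists to scores of at least 160 left 4623 KO replicate 2 peaks without WT overlap, against 9858 as deposited, with 12 in KO replicate 1, 1805 in the KO replicate 2 difference list and 400 without an active mark within 100 kb; limiting only the KO replicate 2 list left 3886. Without WT replicate 2 the count was 15962 with 293 in KO replicate 1, 3267 in the difference list and 1383 remote. Without WT replicate 1 it was 9861 with 112, 3229 and 996, so the rule rests on WT replicate 2. The level of the chromosome shares rests on it too. Without it the chromosome 9 share rose from 21.1% to 63.7% and the chromosome 12 share from 74.3% to 94.1%, in the same order. Leaving out chromosomes 2, 3, 6, 8 and 15, chosen after seeing the data, gave 4258, 48, 1173 and 389, as fewer peaks remain. Leaving out chromosome 18, also chosen after seeing the data, cut the peaks in both KO difference lists to 18 of 36 and left 92 of 111 in KO replicate 1. Counting peaks within 1 kb of WT as overlapped, requiring 25% coverage or adding chromosome X left 9104, 10251 and 9865. The KO minus WT difference for H3K4me3 within 10 kb, 2.1 points, turned to -0.117 for direct overlap, was 6.32 within 50 kb and ranged from -1.52 (without KO replicate 2) to 5.72 (without KO replicate 1) when 1 library was left out; without WT replicate 1 it was -1.29. For H3K36me3 it was -3.78 within 50 kb, and leaving out 1 library gave -3.05 to -0.203. The cause was not tested. For the difference lists, leaving out 1 library gave -0.867 to -0.522 points for H3K4me3 and -0.284 to -0.0913 for H3K36me3. With the replicate number as a block, the differences were unchanged at 2.1, -1.63, -0.695 and -0.188 points with an exact p of 0.5, the smallest that 2 pairs allow; the numbers are not said to pair samples, and the deviations of same-numbered libraries in covered length per 1 Mb window correlated at 0.689 for H3K27me3, 0.47 for H3K4me3 and 0.225 for H3K36me3. The 2 planned tests crossed no threshold under any alternative, which a design of 2 against 2 cannot do. Depth is unknown, so unequal list lengths limit every statement about absence.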

Other observations

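Chromosome X lay outside the rule and is reported as values. H3K27me3 lists held 5 and 20 peaks on it in KO replicates 1 and 2, against 25 and 409 in WT replicates 1 and 2. Of the 20 in KO replicate 2, 7 had no WT overlap, and of the 409 in WT replicate 2, 393 had no KO overlap. H3K36me3 lists held 360 and 743 peaks there in KO and 1075 and 1080 in WT, both lower in KO. H3K4me3 peak numbers there were higher in KO, with 445 and 603 peaks against 412 and 541 in WT. As a share of each whole list they were lower in KO, at 2.66% and 2.53% against 3.23% and 2.95%. The H3K27me3 shares were 0.708% and 0.114% in KO against 0.976% and 2.73% in WT. For H3K36me3 they were 1.08% and 2.06% against 2.78% and 2.83%, so by share all 3 marks were lower in KO. Each KO H3K4me3 library had more X-linked peaks than the WT library of the same number, as on the autosomes, where its lists were longer too.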
